A study of Mus musculus with 6 samples.

Results

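The mitochondrial carriers of the SLC25 family were taken as every gene on the array whose symbol is Slc25a followed by a number, with the exception of Slc25a20, the carnitine carrier. The rule found 43 of the 18193 genes measured. Each gene was represented by the probe set (a group of short probes against 1 transcript) with the highest mean signal over the 6 arrays, and all 43 were kept whether bright or dim. Of these, 37 passed a filter that asks for a signal above the array median on at least 3 arrays, and 5 (Slc25a2, Slc25a18, Slc25a31, Slc25a41 and Slc25a54) lay below the median of every array.

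Whole hearts of mice aged 3 months were measured on 6 one-colour oligonucleotide arrays. Both groups lacked desmin, an intermediate filament protein that ties muscle fibrils to mitochondria and the cell membrane. The Des-/- group of 3 arrays came from mice of the 129SV strain, and the TNFαDes-/- group of 3 arrays from desmin-null mice that also overexpress the cytokine TNF-α in the heart, on a mixed 129SV/C57 background. The comparison addresses how cardiac TNF-α changes gene expression in a heart without desmin. Strain and transgene cannot be told apart, no heart with desmin was among the samples, and the sources used here do not give the promoter of the transgene. Per the labels, RNA of 3 hearts per genotype went into a pool before labelling, whereas the design text speaks of separate mice. If the 3 arrays of a group repeat 1 pool, the p-values below reflect technical spread alone.

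Carriers of this family are small proteins of the mitochondrial inner membrane that exchange solutes between the cytosol and the matrix. The ADP/ATP carriers export the ATP made by oxidative phosphorylation, which the beating heart uses at a high rate, while other members move phosphate, amino acids, carboxylates, nucleotides and cofactors. The proteins are made in the cytosol and reach the inner membrane through the TOM complex, the small TIM chaperones and the TIM22 complex. For several members no substrate is firmly assigned.

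Of the 43 carriers, 4 rose and 5 fell in TNFαDes-/- hearts (limma, Benjamini-Hochberg adjusted p below 0.05 over all genes). Of all genes, 21.3% passed the same test, 15.2% higher and 6.05% lower, against 9.30% and 11.6% of the carriers. The median log2 change was 0.03 over the carriers and 0.04 over all genes. The groups did not overlap for 17 carriers (39.5%), 9 higher and 8 lower, against 38.0% of all genes (24.3% higher and 13.7% lower), so the total is not a result about the family. The largest rises were those of Slc25a5, an ADP/ATP carrier (2.05-fold), and Slc25a33, a carrier of pyrimidine nucleotides (1.98-fold). The largest falls were those of Slc25a34, an orphan carrier (2.04-fold lower), and Slc25a42, which brings coenzyme A into the matrix (1.73-fold lower).

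The upstream sequence of these 4 genes is shown because they changed most and passed the test, in opposite directions. Each window runs from 250 bases before the RefSeq start of the gene to 50 bases after it (300 bases, build GRCm38.p6, along the strand of the gene). The windows are chrX:36795347-36795646 on the plus strand for Slc25a5, chr4:149774218-149774517 on the minus strand for Slc25a33, chr4:141623785-141624084 on the minus strand for Slc25a34 and chr8:70212232-70212531 on the minus strand for Slc25a42. Capitals mark matches, on either strand, to 6 motifs searched: the palindromic NRF1 site, CACGTG (E-box), AAGGTCA (oestrogen-related receptors), TGACNNNGC (core of the antioxidant response element), TGATGNAA (ATF4) and CCAAT (NF-Y).
Slc25a5: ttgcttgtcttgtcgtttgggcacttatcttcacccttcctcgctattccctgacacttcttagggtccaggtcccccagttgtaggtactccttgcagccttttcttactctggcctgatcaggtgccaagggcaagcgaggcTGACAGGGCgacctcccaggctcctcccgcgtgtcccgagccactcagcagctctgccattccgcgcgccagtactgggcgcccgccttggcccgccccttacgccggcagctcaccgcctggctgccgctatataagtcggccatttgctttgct
Slc25a33: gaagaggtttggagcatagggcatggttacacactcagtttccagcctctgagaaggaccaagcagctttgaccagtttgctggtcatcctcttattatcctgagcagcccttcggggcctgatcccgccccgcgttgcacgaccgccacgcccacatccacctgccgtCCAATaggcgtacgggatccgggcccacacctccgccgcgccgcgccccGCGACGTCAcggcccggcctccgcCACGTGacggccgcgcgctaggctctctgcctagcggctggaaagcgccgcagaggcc
Slc25a34: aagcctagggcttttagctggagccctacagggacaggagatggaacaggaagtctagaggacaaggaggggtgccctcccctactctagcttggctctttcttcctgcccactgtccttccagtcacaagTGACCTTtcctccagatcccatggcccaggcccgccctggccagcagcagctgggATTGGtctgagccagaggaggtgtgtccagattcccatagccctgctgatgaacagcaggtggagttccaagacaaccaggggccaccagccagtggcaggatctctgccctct
Slc25a42: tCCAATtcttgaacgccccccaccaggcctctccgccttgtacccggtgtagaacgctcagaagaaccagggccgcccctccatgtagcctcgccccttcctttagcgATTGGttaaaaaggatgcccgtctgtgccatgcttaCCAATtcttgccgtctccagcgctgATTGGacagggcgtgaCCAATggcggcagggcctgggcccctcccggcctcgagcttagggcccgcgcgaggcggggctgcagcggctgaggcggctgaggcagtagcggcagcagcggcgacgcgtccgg
The antioxidant core was matched in the windows of Slc25a5 and Slc25a33 and in 12.4% of all 32851 windows of that length. The E-box was matched in the window of Slc25a33 and in 7.15% of all windows. The receptor site was matched in the window of Slc25a34 and in 4.72% of all windows. The CCAAT box was matched 5 times in the window of Slc25a42, and at least once in those of Slc25a33 and Slc25a34 and in 37.4% of all windows. The antioxidant core stood in 12 of the 42 windows of the 33 carriers that have one, and the E-box in 8 of 42. The receptor site stood in 1 of the 42 and the CCAAT box in 21. Some genes have more than 1 window, and overlapping windows, as for Slc25a14 and Slc25a23, hold the same site again. These counts of windows are therefore not counts of genes. Slc25a23, which also rose, had the core in each of its windows, but these overlap and hold the same site. Slc25a39, which rose too, had no match to the core. Carriers that did not pass the test, such as Slc25a3, Slc25a14 and Slc25a38, also had the core. No window of a carrier matched the NRF1 site or TGATGNAA, which stood in 0.971% and 3.97% of all windows. These are matches of letters and no measure of binding.

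The nucleotide carriers were the group with the most rises, with 3 of 9 past the test (33.3%, against 15.2% of all genes). The substrate groups hold 3 to 9 genes, so their shares are not results about the groups. Slc25a5, the ADP/ATP carrier of many cell types, read 12.15, 11.69 and 11.67 on the Des-/- arrays (deposited log2 signal) and 12.90, 12.86 and 12.85 on the TNFαDes-/- arrays. Every TNFαDes-/- array lay above every Des-/- array, and Des-/- replicate 1 was the highest of its group. The log2 change was 1.03 ± 0.14 (SE, n = 3 arrays per group, limma adjusted p = 0.00141). Slc25a5 has 8 probe sets, all with higher means in TNFαDes-/- hearts (log2 changes of 0.58 to 1.14), and 6 of them passed when all probe sets were tested. Of the 8, 6 carry the _x_at suffix, which marks probes that may bind related transcripts, and the brightest without it gave 1.14.

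Slc25a4, the ADP/ATP carrier of heart and skeletal muscle, did not pass. It read 14.46, 13.78 and 13.83 on the Des-/- arrays and 14.38, 14.30 and 14.40 on the TNFαDes-/- arrays. Des-/- replicate 1 was the highest of all arrays, so the groups overlapped. The log2 change was 0.34, with a 95% interval of -0.06 to 0.73 (limma adjusted p = 0.218). These signals lay close to that of the brightest probe set of each array (14.20 to 15.04), and a dimmer probe set of Slc25a4 gave 0.41 ± 0.21 (SE), which did not pass either. Slc25a31, the ADP/ATP carrier of germ cells, lay below the median of every array and stood at 0.37 ± 0.15 (adjusted p = 0.112).

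Slc25a33, which carries pyrimidine nucleotides, read 8.70, 8.66 and 8.51 on the Des-/- arrays and 9.59, 9.55 and 9.66 on the TNFαDes-/- arrays. The groups were well separated and each was tight, with a log2 change of 0.98 ± 0.10 (SE, n = 3 arrays per group, limma adjusted p = 0.000404), on its single probe set. Its relative Slc25a36 stood at -0.03 ± 0.20 (adjusted p = 0.943). Slc25a23, a calcium-regulated exchanger of ATP-Mg for phosphate, read 7.50, 7.29 and 7.18 on the Des-/- arrays and 7.90, 7.59 and 8.05 on the TNFαDes-/- arrays. The groups did not overlap, but TNFαDes-/- replicate 2 lay close to Des-/- replicate 1. The log2 change of Slc25a23 was 0.52 ± 0.14 (adjusted p = 0.0317), a call lost without Des-/- replicate 2 or 3 or TNFαDes-/- replicate 1 or 3 (adjusted p of 0.0985 to 0.124). Slc25a24 and Slc25a25, exchangers of the same kind, stood at 0.22 ± 0.22 and 0.08 ± 0.12, and the dim Slc25a41 at -0.06 ± 0.13. None of these 3 passed.

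**Figure D1:**
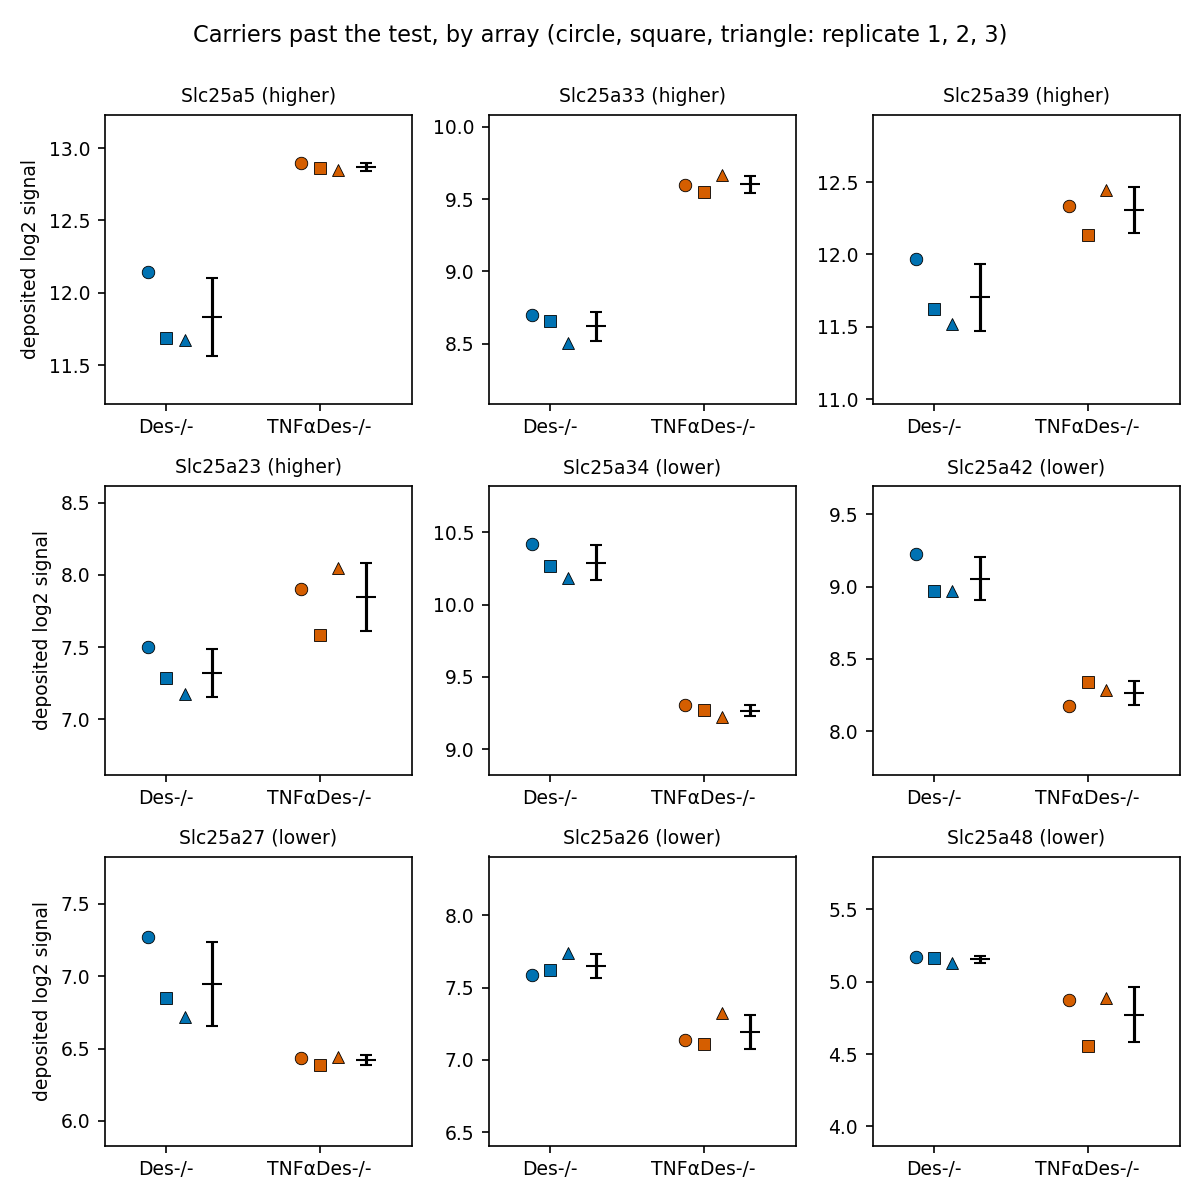
Deposited log2 signal of the 9 carriers past the test on each array (vertical axis, each panel spanning 2 log2 units), with Des-/- on the left and TNFαDes-/- on the right; points are arrays, and the bar beside them is the mean ± SD (n = 3). The groups do not overlap in any of the 9 panels, and Des-/- replicate 1 is the highest of its group in 8 of them, the exception being Slc25a26.

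None of the 9 amino acid carriers passed (limma), and 2 of them, Slc25a13 and Slc25a22, had an unadjusted p below 0.05. The aspartate/glutamate carriers of the malate-aspartate shuttle, which brings reducing equivalents into mitochondria, were Slc25a13 at 0.27 ± 0.12 (SE; adjusted p = 0.140) and Slc25a12 at -0.11 ± 0.13 (adjusted p = 0.580). The glutamate carrier Slc25a22 stood at 0.24 ± 0.10 and the glycine carrier Slc25a38 at 0.02 ± 0.10. The second glutamate carrier, Slc25a18, stood at 0.16 ± 0.14 and the ornithine carrier Slc25a2 at 0.0010 ± 0.11, both on dim probe sets. Slc25a29, a carrier of basic amino acids, stood at -0.36 ± 0.16 on its brightest probe set (adjusted p = 0.148). All 5 of its probe sets had lower means in TNFαDes-/- hearts, and 2 passed when all probe sets were tested, at -0.74 and -0.68. The probe sets of Slc25a44, the carrier of branched-chain amino acids, disagreed. The brightest gave -0.01 ± 0.27, another 0.31 ± 0.22, and the third -0.68 ± 0.11, which was the only one to pass (adjusted p = 0.00476 over all probe sets).

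Of the 3 carriers of di- and tricarboxylates none passed (limma), with 1, Slc25a11, at an unadjusted p below 0.05. Slc25a11, the oxoglutarate/malate carrier of the same shuttle, read 11.70, 11.32 and 11.32 on the Des-/- arrays and 11.13, 11.11 and 11.14 on the TNFαDes-/- arrays. All TNFαDes-/- arrays were lower, but Des-/- replicate 1 stood well above its group, and the log2 change of -0.32 ± 0.12 (SE) did not pass (adjusted p = 0.102). The citrate carrier Slc25a1 and the dicarboxylate carrier Slc25a10 stood at -0.04 ± 0.10 and 0.02 ± 0.12, with 95% intervals of -0.27 to 0.19 and -0.25 to 0.29.

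Cofactor carriers moved in both directions, with 1 of 8 higher and 2 lower (12.5% and 25%, against 15.2% and 6.05% of all genes). Slc25a39, the mitochondrial glutathione carrier, read 11.97, 11.62 and 11.52 on the Des-/- arrays and 12.33, 12.14 and 12.45 on the TNFαDes-/- arrays. The groups did not overlap, and the log2 change was 0.60 ± 0.14 (SE, n = 3 arrays per group, limma adjusted p = 0.0177). This call was lost after quantile normalization (0.24, adjusted p = 0.136), with cyclic loess (0.22, adjusted p = 0.154), with the mean of all probe sets (0.20, adjusted p = 0.191) and without Des-/- replicate 2 or 3 or TNFαDes-/- replicate 1 or 3 (adjusted p up to 0.0808). Of its 5 probe sets 3 were called higher and 1, at -0.76 ± 0.19, lower, the only carrier with probe sets called in both directions. Its relative Slc25a40 stood at 0.05 ± 0.12.

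Slc25a42, the coenzyme A carrier, read 9.22, 8.97 and 8.97 on the Des-/- arrays and 8.17, 8.34 and 8.28 on the TNFαDes-/- arrays. The groups were separated by more than their spread, with a log2 change of -0.79 ± 0.11 (SE, n = 3 arrays per group, limma adjusted p = 0.00181). A dimmer probe set gave 0.16 ± 0.17, and the mean of the pair did not pass (-0.32, adjusted p = 0.0716). Slc25a26, which brings the methyl donor S-adenosylmethionine into mitochondria, read 7.59, 7.62 and 7.74 on the Des-/- arrays and 7.14, 7.11 and 7.33 on the TNFαDes-/- arrays. The groups did not overlap and both of its probe sets fell, by 0.46 and 0.78 on the log2 scale (adjusted p = 0.0155 for the brighter). That call was lost without Des-/- replicate 2 or 3 or TNFαDes-/- replicate 1 (adjusted p up to 0.0715). Slc25a32, a carrier of folate and FAD, stood at the threshold with 0.57 ± 0.18 (adjusted p = 0.0502). It read 5.37, 5.15 and 5.12 on the Des-/- arrays and 5.92, 5.37 and 6.06 on the TNFαDes-/- arrays, close to the array medians. Slc25a51, the NAD carrier, stood at -0.22 ± 0.12 (adjusted p = 0.251), and Slc25a17, the peroxisomal member of the family, at 0.17 ± 0.12.

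None of the 3 carriers of phosphate and iron passed (limma), with 1, Slc25a28, at an unadjusted p below 0.05. The phosphate carrier Slc25a3, which supplies ATP synthase, read 13.80, 13.50 and 13.49 on the Des-/- arrays and 13.85, 13.87 and 13.83 on the TNFαDes-/- arrays. The groups did not overlap, by a narrow margin over Des-/- replicate 1, and the log2 change was 0.25 ± 0.11 (SE; adjusted p = 0.148). Of the mitoferrins, which bring iron into mitochondria, Slc25a28 stood at 0.33 ± 0.11 (adjusted p = 0.0564) and Slc25a37 at 0.03 ± 0.10 (adjusted p = 0.854).

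Among the 3 carriers that resemble uncoupling proteins 1 fell (33.3%, against 6.05% of all genes). Slc25a27, also known as UCP4, read 7.27, 6.85 and 6.72 on the Des-/- arrays and 6.44, 6.38 and 6.44 on the TNFαDes-/- arrays. The groups did not overlap, and the log2 change was -0.53 ± 0.14 (SE, n = 3 arrays per group, limma adjusted p = 0.0328). The other 3 probe sets of Slc25a27 gave -0.03 to -0.18, and the mean of all did not pass (-0.21, adjusted p = 0.0924). The call was also lost without Des-/- replicate 2 or any 1 TNFαDes-/- array (adjusted p up to 0.0994). Slc25a14 and Slc25a30 stood at 0.30 ± 0.10 and -0.04 ± 0.20 and did not pass.

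Of 8 orphan carriers 2 fell (25%, against 6.05% of all genes). Slc25a34 read 10.42, 10.26 and 10.19 on the Des-/- arrays and 9.30, 9.27 and 9.23 on the TNFαDes-/- arrays. This was the clearest separation in the family, with a log2 change of -1.03 ± 0.10 (SE, n = 3 arrays per group, limma adjusted p = 0.000357), on its single probe set. Its relative Slc25a35 stood at -0.18 ± 0.10 (adjusted p = 0.232). Slc25a48 read 5.17, 5.16 and 5.13 on the Des-/- arrays and 4.87, 4.56 and 4.89 on the TNFαDes-/- arrays, where it lay below the median of each array, so no fold is given. Its log2 change of -0.38 ± 0.12 (adjusted p = 0.0467) was lost with each of the 6 arrays left out in turn and under 7 other settings. Slc25a46, a protein of the mitochondrial outer membrane, stood at 0.25 ± 0.15 (adjusted p = 0.289). The remaining orphans, Slc25a45 (-0.06 ± 0.14), Slc25a47 (0.32 ± 0.17), Slc25a53 (-0.16 ± 0.15) and Slc25a54 (-0.01 ± 0.09), did not pass, and the last 3 were dim.

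**Figure D2:**
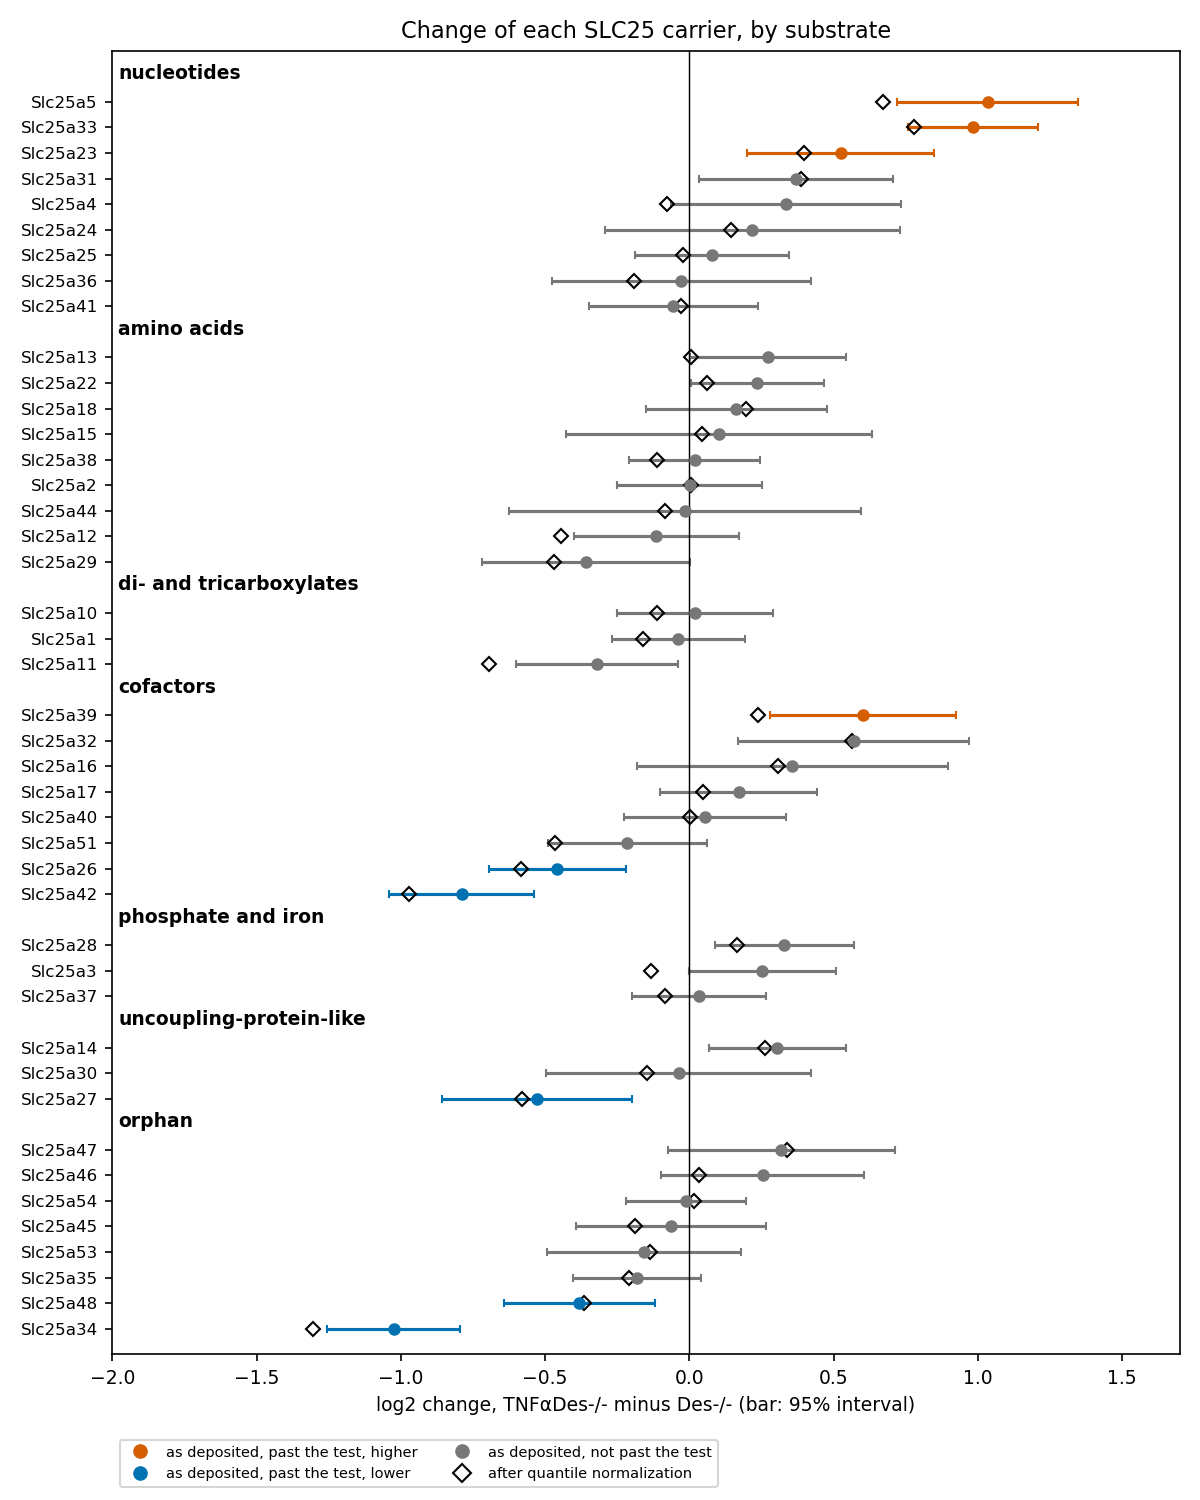
Log2 change (TNFαDes-/- minus Des-/-, horizontal axis) of each of the 43 carriers, grouped by substrate; filled circles with 95% intervals are the deposited values, coloured where past the test, and open diamonds the same change after quantile normalization. Slc25a5, Slc25a33 and Slc25a34 lie far from 0 under both scalings, while bright carriers such as Slc25a3, Slc25a4, Slc25a11 and Slc25a12 shift to the left after normalization.

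The scaling of the arrays mattered most for bright carriers. The deposited columns did not share 1 distribution, and Des-/- replicates 2 and 3 had lower high-end signals than the other 4 arrays. After quantile normalization, which forces all arrays onto 1 distribution, 4 carriers were higher and 7 lower, against 12.0% and 10.4% of all genes, and the median change of the carriers was -0.03. Slc25a11 (-0.70, limma adjusted p = 0.00104), Slc25a12 (-0.44, adjusted p = 0.00685) and Slc25a51 (-0.47, adjusted p = 0.00432) then fell, Slc25a32 then rose (0.57, adjusted p = 0.0467), and the calls of Slc25a39 and Slc25a48 were lost. Slc25a4 and Slc25a3 turned from 0.34 and 0.25 to -0.08 and -0.13 and did not pass either way. Cyclic loess gave the same calls as quantile normalization for Slc25a11, Slc25a12 and Slc25a51 (-0.67, -0.43 and -0.48). Slc25a12 and Slc25a51 each have 3 probe sets with changes of both signs on the deposited scale (-0.26 to 0.44 and -0.22 to 0.31), and quantile normalization was tested only on the brightest of them. The changes of Slc25a5 (0.67), Slc25a33 (0.78), Slc25a23 (0.40), Slc25a34 (-1.31), Slc25a42 (-0.97), Slc25a26 (-0.58) and Slc25a27 (-0.58) kept their sign and passed after quantile normalization.

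Related carriers were also set against each other within each array, which removes any shift common to both genes. The 8 pairs were chosen after the values were known, and the ratio of 2 probe sets is no ratio of molecules, so only its difference between groups is read. The log2 ratio of Slc25a5 to Slc25a4 was -2.32, -2.09 and -2.16 on the Des-/- arrays and -1.47, -1.44 and -1.56 on the TNFαDes-/- arrays. It was 0.70 higher in TNFαDes-/- hearts (0.75 after quantile normalization), with no overlap. The ratio of Slc25a13 to Slc25a12 was -1.04, -0.97 and -0.96 on the Des-/- arrays and -0.69, -0.56 and -0.56 on the TNFαDes-/- arrays, 0.39 higher (0.45 after normalization). The ratio of Slc25a33 to Slc25a36 was 1.01 higher, Slc25a35 to Slc25a34 0.84 higher, Slc25a39 to Slc25a40 0.55 higher (0.23 after normalization) and Slc25a28 to Slc25a37 0.30 higher. These 6 pairs had no overlap under either scaling, whereas Slc25a23 to Slc25a25 and Slc25a22 to Slc25a18 overlapped. Slc25a5, Slc25a33, Slc25a34 and Slc25a39, each in 1 of the 6, had already passed the test as single genes. Of single genes 38.0% did not overlap on the deposited scale, and the share among other gene pairs was not taken. The count of pairs is therefore not a result about the family. With 3 arrays against 3 the two-sided exact permutation test cannot go below p = 0.10, and each of the 6 pairs reached that value (0.133 after Benjamini-Hochberg adjustment over 8 pairs).

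**Figure D3:**
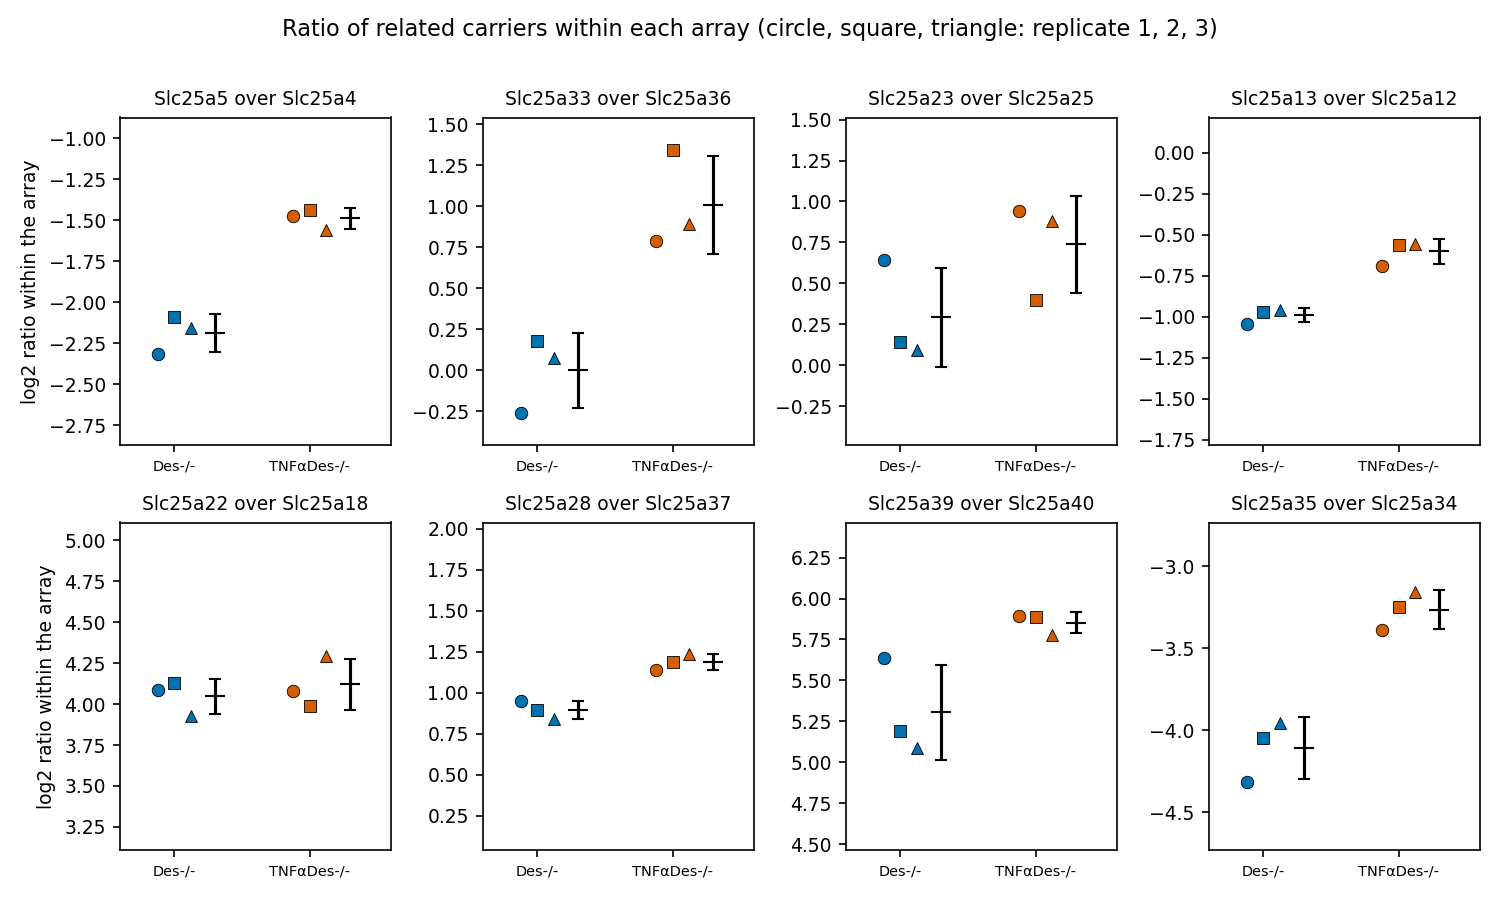
Log2 ratio of related carriers within each array (vertical axis, each panel spanning 2 log2 units) for 8 pairs, Des-/- on the left and TNFαDes-/- on the right; points are arrays and bars the mean ± SD (n = 3). The groups do not overlap in 6 panels, and the ratio is higher on the TNFαDes-/- arrays in these, a direction that depends on which gene of a pair is put first.

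Probe sets of 1 carrier differed in some cases. Of the 43 carriers 21 had 1 probe set and 22 several, 91 in all, of which 13 were called higher and 9 lower when all probe sets were tested. The share of all probe sets called was not set beside these counts, and many of those called higher belong to Slc25a5. The counts are therefore not a result about the family. For Slc25a5 and Slc25a26 every probe set had the same sign. Of the 2 probe sets of Slc25a53, an orphan, the dimmer lay below the median of every array and gave 0.41, against -0.16 for the brighter, which did not pass.

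**Figure D4:**
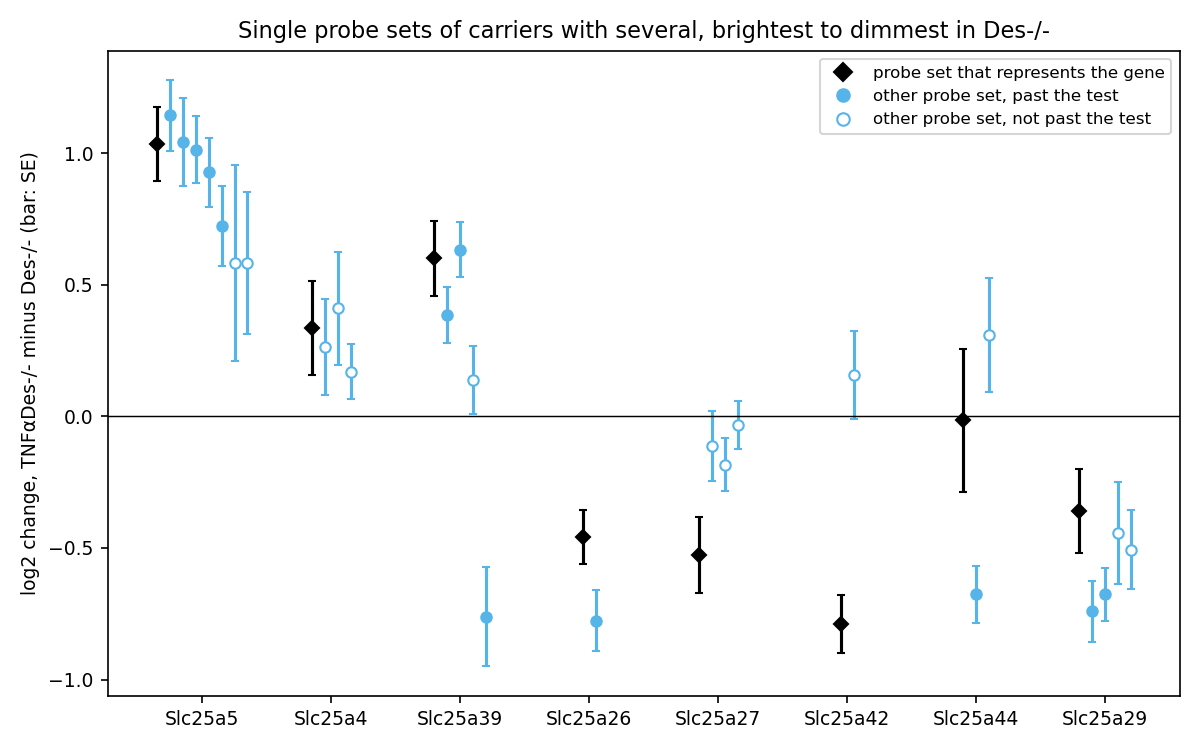
Log2 change (TNFαDes-/- minus Des-/-, vertical axis, bar: SE) of each probe set of 8 carriers, ordered from the brightest to the dimmest in Des-/- hearts; the diamond is the probe set that represents the gene. All 8 probe sets of Slc25a5 lie above 0 and both of Slc25a26 below it, while those of Slc25a39, Slc25a42 and Slc25a44 lie on both sides.

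Some carriers varied across arrays in a way that crossed the groups. For 8 carriers (Slc25a4, Slc25a15, Slc25a16, Slc25a24, Slc25a30, Slc25a36, Slc25a44 and Slc25a46), Des-/- replicate 1 and TNFαDes-/- replicates 1 and 3 all lay above the other 3 arrays. The ornithine carrier Slc25a15 read 6.86, 6.34 and 6.33 on the Des-/- arrays and 6.87, 6.08 and 6.89 on the TNFαDes-/- arrays. Slc25a16, linked to coenzyme A, read 6.78, 6.17 and 6.15, then 6.98, 6.23 and 6.95. In each of the 8 the range over the Des-/- arrays exceeded the difference between group means. The labels do not say what these 3 arrays share. The array values of Slc25a11, Slc25a32, Slc25a15 and Slc25a16 are given because of their pattern, after it was seen.

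Genes listed as working with the carriers were read from lists made for this comparison. Their counts are to be read beside all genes, of which 15.2% were higher and 6.05% lower. After quantile normalization these shares were 12.0% and 10.4%. Of 4 family members with other names, Mtch1, of the mitochondrial outer membrane, rose by 0.75 ± 0.16 (SE; adjusted p = 0.0116), and Ucp1, the uncoupling protein of brown fat, fell by 1.30 on the log2 scale (adjusted p = 0.000281), with Ucp3 at 0.13 and Mtch2 at 0.16. Of 13 genes for the import of carrier proteins, 6 rose and none fell (limma; 7 higher and none lower at an unadjusted p below 0.05; median 0.37, against 0.04 over all genes). Among them were the TOM receptor Tomm20 (0.80 ± 0.21) and the small TIM chaperones Timm10b (0.59 ± 0.15), Timm8a1 (0.56 ± 0.10) and Timm10 (0.43 ± 0.12), the last of which did not pass after quantile normalization (0.10, adjusted p = 0.629). After quantile normalization 3 rose and 1, Timm29 (named after its value was seen), fell (median 0.11, against -0.004 over all genes).

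Of 17 enzymes listed as linked to the cofactor and amino acid carriers, some of which make rather than use a cofactor, 5 rose and 4 fell. Aldh18a1, which makes a precursor of proline and ornithine, rose by 1.48 ± 0.17 (SE), and Mthfd2, of mitochondrial folate metabolism, by 0.99 ± 0.12. The glutathione peroxidase Gpx4 rose by 0.98 ± 0.16. Pank1, which starts coenzyme A synthesis, fell by 0.76 on the log2 scale (SE 0.13), whereas Coasy, which ends it, rose by 0.66 ± 0.10, and Pank3 stood at 0.13 ± 0.12 and did not pass. The other falls were those of Bcat2 (-0.76 ± 0.12), Bckdhb (-0.60 ± 0.11) and Bckdha (-0.37 ± 0.10), which break down branched-chain amino acids, while Dbt, of the same pathway, stood at -0.09 ± 0.15 and did not pass. After quantile normalization 4 of the 17 were higher and 5 lower. Coasy, Pank3, Bcat2, Bckdhb, Bckdha and Dbt were named after their values were seen.

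Of 6 shuttle enzymes 1 fell, the glycerophosphate dehydrogenase Gpd1 (-0.58 ± 0.10 SE). After quantile normalization 3 of the 6 were lower, with the aspartate aminotransferases Got1 (-0.50) and Got2 (-0.43) past the test as well. Of 4 genes of outer membrane channels and the pyruvate carrier 1 rose, the channel Vdac2 (0.65 ± 0.16), and after quantile normalization 1 was higher and 2, Vdac1 (-0.28) and Mpc1 (-0.35), lower. Got1, Got2, Vdac1 and Mpc1 were named after their values were seen. Of 7 genes listed as partners of ADP/ATP exchange 2 rose, Tspo (1.26 ± 0.09) and the cyclophilin Ppif (0.50 ± 0.14), the latter lost after quantile normalization (0.13). These data do not show that Tspo takes part in the exchange. None of 8 genes of general mitochondrial content passed (limma; none at an unadjusted p below 0.05), with a median change of 0.22, and -0.14 with 2 falls after quantile normalization.

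The heart label was borne out by cardiomyocyte markers (Myh6, Tnnt2, Actc1, Ryr2 and Pln), whose mean log2 signal was 13.51 to 14.18 on the Des-/- arrays and 14.02 to 14.09 on the TNFαDes-/- arrays. None of the 5 passed (limma), with 2 higher at an unadjusted p below 0.05. In whole tissue, fewer cells of a type and less RNA per cell cannot be told apart. Marker counts are to be read beside all genes, of which 15.2% were higher and 6.05% lower (12.0% and 10.4% after quantile normalization). In lists of 3 to 5 genes a single call is not a result about the cell type. Of 4 adipocyte markers 2 fell (mean signal 7.76 to 8.04, then 7.30 to 7.36): Adipoq by 1.27 and Cidec by 0.66 on the log2 scale, with Lep below the median of every array. Of 3 erythroid markers Alas2 fell by 1.75 on the log2 scale, and Hba-a1 and Slc4a1 were below the median of every array. Of 5 macrophage markers 4 rose and Cd68 fell (mean 8.58 to 9.03, then 8.90 to 9.02), and of 5 endothelial markers 2 fell (8.53 to 8.90, then 8.36 to 8.40). Of 5 fibroblast markers 2 rose (10.81 to 11.33, then 11.36 to 11.39; 1 higher and 2 lower after quantile normalization), and of 5 smooth muscle markers 1 fell. Of 5 skeletal muscle markers 3 lay below the median of every array, among them Tnnt3, the only 1 that fell. Of 5 neuronal markers 1 rose, with 2 below the median of every array. After quantile normalization 1 cardiomyocyte, 3 endothelial, 3 adipocyte, 2 smooth muscle and 2 skeletal muscle markers were lower. The last 2 were Tnnt3 and Ckm. Ckm is also on the list of partners of ADP/ATP exchange and was bright (means of 13.36 and 13.30), so it is not shown to mark skeletal muscle here. The counts of macrophage, erythroid and neuronal markers stayed the same. The part of these cell types in the changes of the carriers was not tested.

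The engineered genes gave no check of the labels. Tnf stood at 0.07 ± 0.12 (SE; limma adjusted p = 0.746) and Des at 0.39 ± 0.10 (adjusted p = 0.0219), which did not pass after quantile normalization (0.22, adjusted p = 0.199). The Des probe set read 8.33 to 8.43 on the Des-/- arrays and 8.73 to 8.88 on the TNFαDes-/- arrays, well above the array medians although both groups lack desmin, and the position of their probes relative to the transgene and the deletion is not known here. The log2 ratio of the 3′ to the 5′ control probe set is a measure of RNA quality. For Gapdh it was -0.05 to 0.01 on the Des-/- arrays and 0.28 to 0.34 on the TNFαDes-/- arrays. For Actb it was 0.41 to 0.57 and 0.62 to 0.79, again without overlap. This difference follows genotype and cannot be told apart from it, and its part in the results was not tested. Array medians lay between 5.02 and 5.08.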

How the data were processed

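Heart RNA on 6 arrays (3 per group) was read from the value table deposited by the authors, in log2 units. The submitters' processing notes name RMA, without a version, and do not say whether its quantile step was run. Depth does not apply to arrays: their number, 6, sets the precision, and no detection calls were used. Of 45101 probe sets, 64 are controls, the platform annotation pairs 34945 with a single symbol (the ones used here), 932 with more than 1 and 9160 with none. Gene identifiers of all 43 carriers were found in RefSeq (GRCm38.p6), with the same symbol.

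The comparison used lmFit and eBayes from limma 3.58.1 (R 4.3.3), without a block, with Benjamini-Hochberg adjustment over 18193 genes and a threshold of 0.05. Changes are TNFαDes-/- minus Des-/-. The fit was tested on simulated data. Ratios used an exact permutation test (scipy 1.17.1). Every carrier could be named, those past the test and the 4 brightest were given array by array, and up to 4 genes of a related list were named by size of change, beside those marked as named after their values were seen. Carriers and lists were chosen with earlier results of these data known. The 17 alternative settings covered the model, array weights, replicate block, dim probe sets, probe set choice, scaling and each array left out.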

Additional observations from a re-analysis of the deposited data

How the results depend on the processing

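The carriers were refitted under 17 settings, all 43 in each but the filter on dim probe sets (37) and the one without probe sets open to cross-hybridisation (42), giving 724 values, of which 579 kept both direction and side of the threshold. Slc25a5, Slc25a33 and Slc25a34 did so under all 17 (log2 changes of 0.64 to 1.19, 0.71 to 1.02 and -1.39 to -0.96), and Slc25a42 under 16 of 17, the exception being the mean of its probe sets. Slc25a33 and Slc25a34 have 1 probe set each, so the settings on probe set choice could not change their values. Their counts of settings are therefore not comparable with that of Slc25a42. The count of carriers higher was 4 and lower 5. With array weights, which gave Des-/- replicate 1 the least weight (0.23), these became 15 and 8. Averaging the probe sets of a gene left 3 lower. Quantile normalization without Des-/- replicate 1 gave 10 lower and a median change of -0.062. Leaving out 1 array gave 2 to 9 higher and 2 to 5 lower, with 9 higher without Des-/- replicate 1, 8 without TNFαDes-/- replicate 2 and 2 without any 1 of the other 4. Fewer arrays were fitted there, and otherwise the cause was not tested. The shares of all genes called with array weights, averaged probe sets or arrays left out were not set beside these counts. The shifts in count are therefore not results about the family. Slc25a10 turned to -0.28 (limma adjusted p = 0.0486) with quantile normalization without Des-/- replicate 1, and single probe sets turned Slc25a39 to -0.76, Slc25a42 to 0.16 and Slc25a53 to 0.41. Same-numbered arrays were not paired by the data (correlations of deviations 0.25, 0.31 and -0.30), and a replicate block gave 5 carriers higher, adding Slc25a32, and 4 lower, losing Slc25a48. Without detection calls, carriers below the array medians are not shown to be above background.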
